A study of Mus musculus with 6 samples.

Results

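Globin genes and 4 other genes of red blood cell precursors were followed in bulk RNA from sorted mouse embryonic cells, to see which of them were still present in mast cell progenitors of the limb and which were missing there together with globin. The set was chosen by gene symbol, with earlier results of these data known. It held 7 of the 17909 genes in the table: the globins Hbb-b1, Hbb-bt and Hba-a1, the membrane protein gene Ermap, the carbonic anhydrase genes Car1 and Car2, and the erythropoietin receptor gene Epor. All 7 were found. The libraries were erythro-myeloid progenitors (EMPs) of the E11.5 fetal liver, described in the labels as LiB7_neg, mast cell progenitors (MCPs) of the E11.5 fetal liver, described as LiB7_pos, E11.5 limb MCPs, E14.5 limb MCPs, skin cells at E16.5 that are titled MCPs and described as mast cells, and macrophage-labelled (MAC) cells of the E11.5 fetal liver. All embryos were C57BL/6xFVB and all cells were sorted through Csf1r-iCre fate mapping, in which a Cre recombinase under Csf1r, a receptor gene of macrophages and early myeloid progenitors, marks cells and their offspring. Each group was 1 library, so the data carry no replicate spread, and the intervals given cover counting error only.

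Hemoglobin is built from alpha and beta globin chains, and its genes are switched on late in red cell formation under the transcription factors GATA1, TAL1 and KLF1. Carbonic anhydrases interconvert carbon dioxide and bicarbonate, and those encoded by Car1 and Car2 are abundant enzymes of the red cell cytosol. ERMAP is an adhesion protein of the immunoglobulin superfamily in the erythroid membrane, and EPOR passes the erythropoietin signal to JAK2 and STAT5 and keeps erythroid precursors alive. Mast cells share GATA1, GATA2 and TAL1 with the erythroid and megakaryocyte lineages.

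The promoters of Hbb-bt, Hba-a1, Ermap and Epor are shown because Hbb-bt, Hba-a1 and Ermap were nearly absent from the limb while Epor was still detected there. They are RefSeq sequences of GRCm38.p6, from 250 bases before to 50 after the start site, 5′ to 3′ on the gene's own strand, with capitals on GATAA, the core letters of the GATA motif, and on CACCC, the core of KLF sites, read on either strand (TTATC and GGGTG are the reverse letters). Positions are chr7:103813874-103814173 on the minus strand for Hbb-bt, chr11:32283422-32283721 on the plus strand for Hba-a1, chr4:119189946-119190245 on the minus strand for Ermap and chr9:21963527-21963826 on the minus strand for Epor. Promoters of Hbb-b1, Car1 and Car2 are not shown.
Hbb-bt promoter: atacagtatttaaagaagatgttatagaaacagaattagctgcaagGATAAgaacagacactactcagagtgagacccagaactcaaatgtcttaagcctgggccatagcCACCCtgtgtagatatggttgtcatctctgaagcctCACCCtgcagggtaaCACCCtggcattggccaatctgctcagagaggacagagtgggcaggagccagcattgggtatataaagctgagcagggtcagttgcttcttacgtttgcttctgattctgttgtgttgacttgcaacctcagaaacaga
Hba-a1 promoter: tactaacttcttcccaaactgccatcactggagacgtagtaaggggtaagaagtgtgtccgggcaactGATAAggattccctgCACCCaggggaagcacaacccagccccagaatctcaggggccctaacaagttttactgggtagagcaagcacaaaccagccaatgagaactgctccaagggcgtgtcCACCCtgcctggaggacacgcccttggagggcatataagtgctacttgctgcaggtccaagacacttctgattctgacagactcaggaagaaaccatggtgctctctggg
Ermap promoter: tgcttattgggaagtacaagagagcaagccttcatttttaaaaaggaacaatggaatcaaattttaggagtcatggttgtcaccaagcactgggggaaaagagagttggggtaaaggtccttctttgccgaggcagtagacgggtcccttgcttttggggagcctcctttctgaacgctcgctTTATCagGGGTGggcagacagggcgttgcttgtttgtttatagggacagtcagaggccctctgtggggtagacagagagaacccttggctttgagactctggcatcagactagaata
Epor promoter: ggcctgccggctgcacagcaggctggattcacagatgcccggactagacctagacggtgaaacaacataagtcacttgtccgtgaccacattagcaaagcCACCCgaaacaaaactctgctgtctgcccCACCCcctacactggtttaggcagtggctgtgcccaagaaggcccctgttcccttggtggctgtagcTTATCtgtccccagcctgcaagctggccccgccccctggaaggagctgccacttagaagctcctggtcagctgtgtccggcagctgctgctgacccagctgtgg
Each of the 4 held 1 GATAA match, with 3 CACCC matches in Hbb-bt, 2 in Hba-a1, 1 in Ermap and 2 in Epor. In Ermap the GATAA match began 67 bases before the start site and the CACCC match 60 bases before it, and in Epor the GATAA match began 54 bases before it. GATAA occurred in 25.4% of all 32851 promoters of this length, CACCC in 57.5% and both in 12.6%. A TATAA match, the TATA box letters, began 28 bases before the start in Hbb-bt and 27 bases before it in Hba-a1, and 30 bases before it on the other strand in Ermap, while Epor held none, against 24.9% of all promoters. CCAAT had 3 matches in Hbb-bt, 1 in Hba-a1, 1 in Ermap and 0 in Epor, against 37.4% of promoters with at least 1. CCAAT and TATAA were also read on both strands (ATTGG and TTATA), no match overlapped another in these promoters, and a match is not shown to be bound.

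In the GENCODE M21 annotation of GRCm38, Hbb-bt spans 103812524 to 103813996 of chromosome 7, Hba-a1 32283511 to 32284465 of chromosome 11, Ermap 119175457 to 119190011 of chromosome 4 and Epor 21958897 to 21963506 of chromosome 9. The gene starts given here differ from the RefSeq start sites used for the promoters, and the printed Epor window lies wholly before the GENCODE start. The motif distances above hold for the RefSeq starts only. Car1 (14766216 to 14808368, minus strand) and Car2 (14886273 to 14900770, plus strand) lie in a cluster on chromosome 3 that also holds Car13 (14641727 to 14663002) and, between them, Car3 (14863512 to 14872523). Hbb-b1 is not in that annotation. Globin genes are near copies of each other, and reads may be shared between them. The longest open reading frames of Hbb-bt and Hbb-bs were identical at 443 of 444 bases and those of Hba-a1 and Hba-a2 at 428 of 429 bases, and Hbb-bs and Hba-a2 have no row in the table. The rows of Hbb-bt and Hbb-b2 had equal FPKM in 5 of 6 libraries and differed by 0.01 in the sixth, so the division of reads among beta globin rows is uncertain. Car1 and Car2 reading frames were 64.6% identical.

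Values are FPKM, fragments scaled by transcript length and by all mapped fragments, so levels of different genes can be compared per length. Mapped fragments, estimated from the steps between low FPKM values, lay between 8800000 in E11.5 limb MCPs and 12600000 in EMPs. The skin library held 5675 genes with 1 FPKM or more, against 8270 to 8754 in the others, and Gata2, a regulator gene that mast cells use, was listed at 0 in it. A listed 0 may be a failed estimate, since Prpf8, a core splicing gene, was also listed at 0 in both limb libraries and in skin. Mast cell markers were present in the limb and skin libraries, with 6 of 8 at 1 FPKM or more in the E11.5 limb, 8 at E14.5 and 7 in skin. The MAC library held 5 of 6 macrophage markers at that level, summing to 66.83 FPKM, beside neutrophil markers at 5329.70 and eosinophil markers at 6354.07.

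Globin transcripts were present in all liver libraries, highest in liver MCPs, and almost gone from the limb and skin. Hbb-b1, the adult beta major chain gene, read 25.26 FPKM in EMPs, 119.88 in liver MCPs, 0.19 in E11.5 limb MCPs, 0.29 in E14.5 limb MCPs and 0 in skin, with 8.49 in the MAC library. The limb values stand for about 1 and 2 fragments. Hbb-b1 was higher in each of the 3 liver libraries than in the limb and skin libraries. These single libraries differ in cell type, tissue and age, and how many of all genes were ordered this way was not counted. In bulk RNA, fewer red cell precursors and less globin RNA per cell cannot be told apart.
Hba-a1, an adult alpha chain gene, read 15.65 FPKM in EMPs, 61.12 in liver MCPs, 0.65 in the limb at E11.5, 0 in the limb at E14.5 and 1.23 in skin, with 15.79 in the MAC library. Its skin value stands for about 7 fragments and its E11.5 limb value for about 4, and these do not differ beyond counting error. Hbb-bt, a further adult beta chain gene, read 4.38, 25.60, 0.09, 0 and 0 in the same order, with 2.35 in the MAC library. Its E11.5 limb value is about 0.52 of a fragment, and Hbb-b2 read 0.10 FPKM there.

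In liver MCPs against liver EMPs, Hbb-b1 was 4.75-fold higher (95% counting interval 4.08 to 5.54), Hbb-bt 5.84-fold higher (4.10 to 8.6) and Hba-a1 3.91-fold higher (3.21 to 4.78). In liver MCPs against the MAC library the ratios were 14.1 (11 to 18.6) for Hbb-b1, 10.9 (6.66 to 18.6) for Hbb-bt and 3.87 (3.16 to 4.77) for Hba-a1. Beta and alpha chains differed in the MAC library, where Hba-a1 was close to its level in EMPs (ratio 1.0, 0.780 to 1.31) while Hbb-b1 was at 0.336 of it (0.248 to 0.444). The summed beta rows were 2.80 times the Hba-a1 FPKM in liver MCPs, 2.17 times in EMPs and 0.835 times in the MAC library. The sum is over Hbb-b1, Hbb-b2 and Hbb-bt, while Hba-a1 stands alone because Hba-a2 has no row. These ratios therefore do not measure the balance of chains.
E11.5 limb MCPs against liver MCPs gave a Hbb-b1 level 631-fold lower (123 to 27241, from 1 fragment) and Hba-a1 94.0-fold lower (33.9 to 322). For Hbb-bt, under 1 fragment in the limb, no fold is given. Even in liver MCPs the summed beta rows and Hba-a1 made up 0.151% of all FPKM, and Hbb-b1 stood between Kit, the stem cell factor receptor gene (95.29), and Cpa3, the mast cell carboxypeptidase gene (172.28), per length. The 2 embryonic globin rows in the table were low, with Hbb-y at 0 in 5 libraries and 0.15 in the limb at E14.5, and Hba-x at 1.69 in the limb at E14.5 and at most 0.15 elsewhere.

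**Figure D1:**
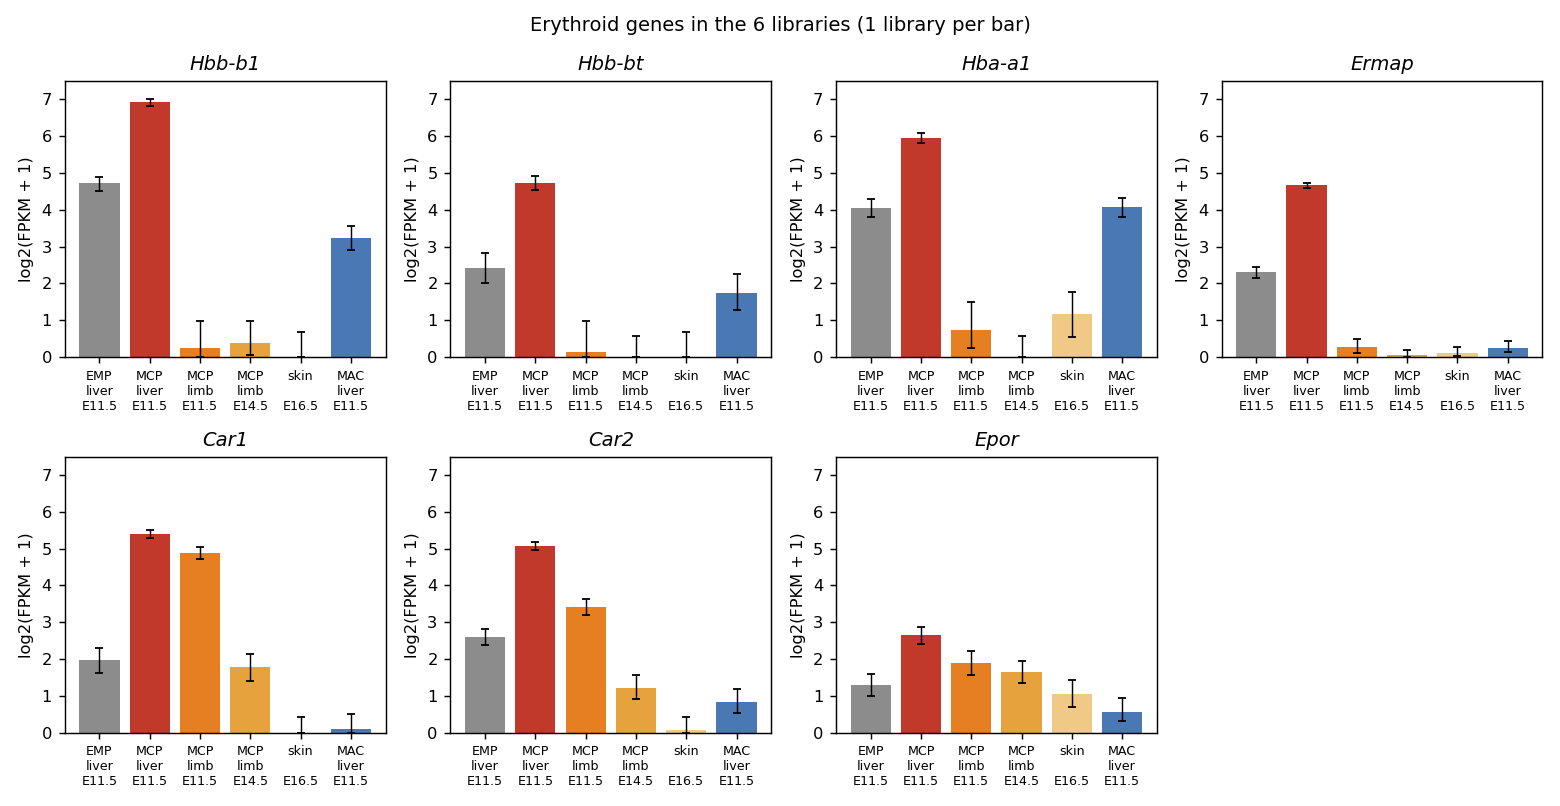
FPKM of the 7 genes as log2(FPKM + 1) (vertical axes) in the 6 libraries (horizontal axes, 1 library per bar), with 95% Poisson counting intervals as error bars. The globins and Ermap are high in liver MCPs and near 0 in the limb and skin, Car1 and Car2 are still present in the limb at E11.5 (28.67 and 9.60 FPKM), and Epor is detected in every library.

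Ermap, like the globins, was high in liver MCPs and nearly absent from the limb and skin. It read 3.91 FPKM in EMPs, 24.32 in liver MCPs, 0.20 in the limb MCPs of E11.5, 0.04 in those of E14.5 and 0.07 in skin, with 0.19 in the MAC library. It was 6.22-fold higher in liver MCPs than in EMPs (5.38 to 7.19) and 128-fold higher than in the MAC library (68.8 to 265). In the limb at E11.5 it was 122-fold lower than in liver MCPs (60.9 to 279). Ermap differed from globin in the MAC library, where it stood at 0.781% of its liver MCP level and Hbb-b1 at 7.08% and Hba-a1 at 25.8%.

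Some erythroid membrane and skeleton genes were lost in the limb and others kept. A gene is counted as lost when both limb libraries were under 25% of its liver MCP FPKM and as kept when both were at 50% or more, among genes at 1 FPKM or more in liver MCPs. Of 24 listed membrane and skeleton genes, 18 met that level, 8 were lost and 5 were kept, while 3.06% of all 8754 genes at that level were lost and 69.3% were kept. Among the lost genes were Ermap, Slc4a1, Rhag, Ank1, Add2 and Tspan33. Slc4a1, the band 3 anion exchanger gene, read 3.45 FPKM in liver MCPs and 0 in both limb libraries and skin, with 1.04 in EMPs and 0.69 in the MAC library. Rhag, which encodes the Rh-associated glycoprotein, read 6.83 in liver MCPs, 0.05 in the limb at E11.5 and 0 at E14.5. Both genes mark the later red cell membrane, and both were highest in liver MCPs. The kept genes were Gypc, Icam4, Bsg, Slc2a1 and Mpp1, of which Bsg, the basigin gene, and Slc2a1, the GLUT1 glucose transporter gene, are used by many cell types. Slc2a1 read 26.90 in liver MCPs, 47.53 in the E11.5 limb and 47.93 in the E14.5 limb, and Bsg 114.58, 108.98 and 98.93. Cd24a, a surface protein gene of many immature cells, was in neither class, at 134.47, 188.69 and 11.91.

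Car1 and Car2 were still present in the E11.5 limb, where globin was at a few fragments or fewer, and were low in the E14.5 limb. Car1, carbonic anhydrase 1, read 2.91 FPKM in EMPs, 41.11 in liver MCPs, 28.67 in the limb MCPs of E11.5, 2.47 in those of E14.5 and 0 in skin, with 0.08 (about 1 fragment) in the MAC library. Car2, carbonic anhydrase 2, read 5.08, 32.86, 9.60, 1.34 and 0.06 in the same order, with 0.79 in the MAC library. Both were highest in liver MCPs, second in the limb at E11.5 and lowest in skin and the MAC library.
Car1 was 14.1-fold higher in liver MCPs than in EMPs (10.3 to 19.8) and Car2 6.47-fold higher (5.30 to 7.99). Against the MAC library the ratios were 514 (97.4 to 21567, from 1 fragment) for Car1 and 41.6 (25.3 to 72.8) for Car2. No other gene of the set was as far from the MAC library as Car1, although its interval overlaps that of Ermap.
In the limb at E11.5, Car1 was 1.43-fold lower than in liver MCPs (1.24 to 1.65) and Car2 3.42-fold lower (2.86 to 4.11), which left 69.7% and 29.2% of the liver level, against 1.06% or less for the globins and 0.822% for Ermap. From then on both were low. In E14.5 against E11.5 limb MCPs, Car1 was 11.6-fold lower (8.18 to 17.6) and Car2 7.16-fold lower (4.7 to 11.2), which left 6.01% and 4.08% of the liver MCP level. The ratio of Car1 to Car2 FPKM was 0.573 in EMPs, 1.25 in liver MCPs, 2.99 in the limb at E11.5 and 1.84 at E14.5.

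Of 15 carbonic anhydrase genes in the table, 6 reached an FPKM of 1 in any library, and the other 9 had highest values from 0.06 to 0.95. Car13, a cytosolic enzyme gene of the same cluster as Car1 and Car2, read 0.55 FPKM in EMPs, 3.14 in liver MCPs, 4.23 in the limb at E11.5, 2.73 at E14.5 and 1.0 in skin, with 1.65 in the MAC library. It was kept in the limb, unlike Car1 and Car2, and Car3 was at most 0.23. Car8, which encodes a relative without the enzyme activity, had its highest level later than Car1, at 0.06 in EMPs, 1.20 in liver MCPs, 4.77 in the E11.5 limb, 30.50 in the E14.5 limb, 5.47 in skin and 0 in the MAC library. Car9, a membrane enzyme gene induced by low oxygen, read 3.61 in the limb at E11.5 and at most 0.46 elsewhere.

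**Figure D2:**
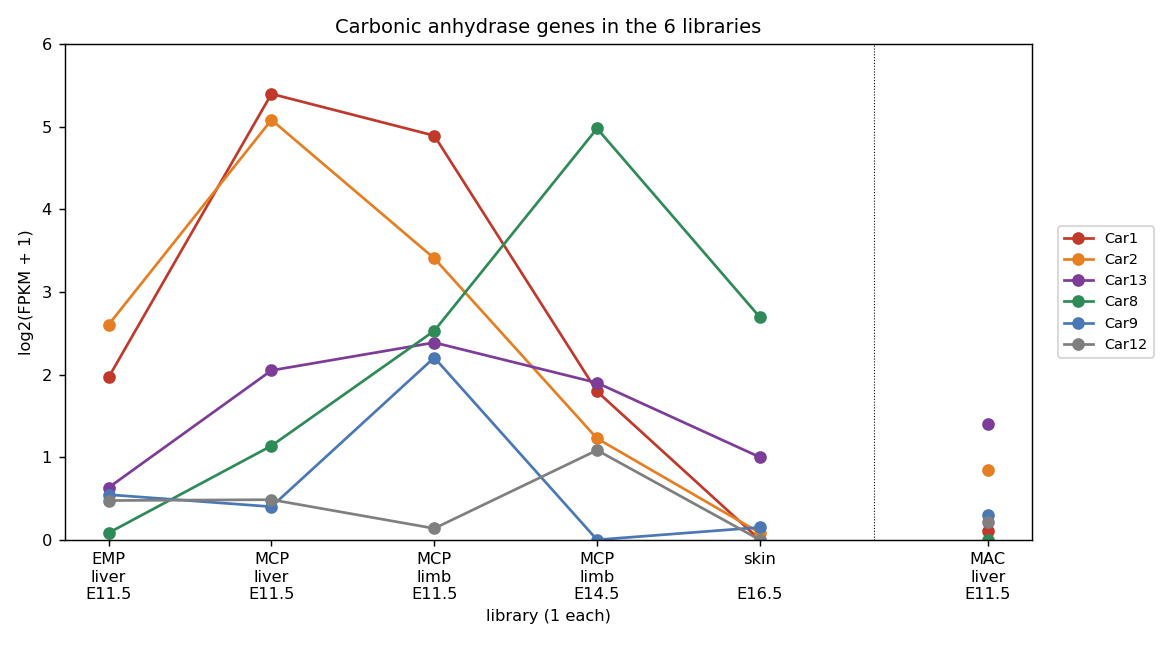
Carbonic anhydrase genes as log2(FPKM + 1) (vertical axis) in the libraries from EMPs to skin and, right of the dotted line, in the MAC library (1 library per point). Lines join the points of a gene, although the EMP, liver MCP and first limb libraries are all of E11.5. Car1 and Car2 peak in liver MCPs (41.11 and 32.86 FPKM), Car8 in E14.5 limb MCPs (30.50), and Car13 is kept in both limb libraries (4.23 and 2.73).

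Epor stayed detectable throughout the lineage. It read 1.46 FPKM in EMPs, 5.29 in liver MCPs, 2.73 in the limb MCPs of E11.5, 2.13 in those of E14.5 and 1.08 in skin, with 0.48 in the MAC library. In this order about 31, 111, 41, 42 and 17 fragments stood behind the values, and about 10 in the MAC library. Liver MCPs were above every other library, and the counting intervals of neighbours from the limb at E11.5 down to the MAC library overlapped one by one.
Epor was 3.62-fold higher in liver MCPs than in EMPs (2.44 to 5.65) and 11-fold higher than in the MAC library (5.48 to 22.4). In the limb at E11.5 it was at 0.516 of the liver MCP level (0.352 to 0.745), and the E14.5 limb level was 0.780 of the E11.5 level (0.497 to 1.24), an interval that includes 1. In skin it was at 20.4% of the liver MCP level as deposited and at 47.1% after median-of-ratios scaling. As deposited, the median in skin of all genes at 1 FPKM or more in liver MCPs was 25.4% of their liver MCP level, above Epor. Scaling multiplies every gene of a library by the same factor, so it does not change this order.

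Of 17 listed signalling genes other than Epor, 11 reached an FPKM of 1 in liver MCPs, and 0 were lost and 7 kept in the limb (63.6%, against 69.3% of all genes kept and 3.06% lost), which is near the share over all genes. Lyn, a kinase gene used by EPOR and by the mast cell IgE receptor, read 20.24 FPKM in liver MCPs, 16.77 and 21.65 in the limb libraries and 23.72 in skin. Jak2, the kinase bound to EPOR, read 15.27, 10.27, 5.46 and 4.52, and Ptpn6, a phosphatase gene that ends the signal, 23.29, 18.81, 9.83 and 1.28 in the same order. Cish, a STAT5 target, read 0.35 in liver MCPs, 0.96 in the E11.5 limb, 2.17 at E14.5 and 1.70 in skin. Many cytokine receptors use these genes, so they are not particular to erythropoietin.

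Set against all genes, the set was high in liver MCPs. Calls required a log2(FPKM + 1) difference of 2 or more, a 4-fold change, and 10 FPKM or more in one of the libraries compared. In liver MCPs 6 of the 7 reached that level and Epor did not. Hbb-bt, Ermap, Car1 and Car2 did not reach it in EMPs, so against EMPs they could only be called higher. The same holds for Hbb-b1, Hbb-bt, Ermap, Car1 and Car2 against the MAC library. In the E11.5 limb the globins, Ermap and Car2 were under it and could only be called lower, as could Car1 in the E14.5 limb. In liver MCPs against EMPs, Hbb-b1, Hbb-bt, Ermap, Car1 and Car2 were called higher, 5 of 6, where 60 of 3369 genes (1.78%) were, and Hba-a1 missed the call at a difference of 1.90. Scaling the libraries to equal sums brought Hba-a1 past it (2.03), and a pseudocount of 5 ended the calls of Hbb-bt, Ermap and Car2. In liver MCPs against the MAC library the same 5 of 6 were called higher, where 121 of 3254 genes (3.72%) were, and Hba-a1 again missed it at 1.89. In E11.5 limb MCPs against liver MCPs, Hbb-b1, Hbb-bt, Hba-a1 and Ermap were called lower, 4 of 6, where 64 of 3136 genes (2.04%) were, while Car1 (−0.51) and Car2 (−1.68) were not. In E14.5 against E11.5 limb MCPs only Car1 passed the level, and it was called lower (−3.10), where 52 of 2970 genes (1.75%) were. In the MAC library against EMPs 2 members passed the level and 0 were called (3.05% of 3179 genes in either direction). In skin against E14.5 limb MCPs none of the 7 passed it, and 35.2% of 2759 genes were called in either direction.
With a looser rule of 2-fold at 1 FPKM or more, all 7 were higher in liver MCPs than in EMPs, where 9.23% of 9448 genes were, with a median difference of 2.31 against −0.08 over all genes. All 7 were also higher in liver MCPs than in the MAC library, where 16.4% of 9529 genes were. In the E11.5 limb 5 of 7 were lower than in liver MCPs by that rule (12.8% of 9547 genes), Car2 now among them, and in the limb at E14.5 against E11.5 Car1 and Car2 were lower, 2 of 3 (8.13% of 9500 genes). In the MAC library against EMPs Hbb-b1, Ermap, Car1 and Car2 were lower, 4 of 7 (9.84% of 9124 genes). In skin against the E14.5 limb Car1 and Car2 were lower, 2 of 4 (55.3% of 8984 genes), and Hba-a1, from 7 fragments against a listed 0, was higher (5.21%). By this rule too, a member under 1 FPKM in a library could not be called higher there, such as Ermap, Car1 and Car2 in the MAC library. The genes were chosen with these values known, so the counts describe and do not test.

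Across the erythroid lists as a whole, 80 of 101 genes in the table reached an FPKM of 1 in any library, and 38 of them (47.5%) had their highest value in liver MCPs, against 22.2% of all 10769 such genes. In the limb, 16 of 70 erythroid genes at 1 FPKM or more in liver MCPs were lost (22.9%) and 27 kept (38.6%), against 3.06% and 69.3% of all genes. Of the 7, Hbb-b1, Hbb-bt, Hba-a1 and Ermap were lost, and Car1, Car2 and Epor were in neither class. All 7 are among the 38 genes highest in liver MCPs. Hbb-b2, whose row nearly equals that of Hbb-bt, is among both the 38 and the 16 lost genes. The members and lists were chosen with earlier results known, so these shares describe only, and none was computed without the members. Median levels in the limb at E11.5 were 0.371% of liver MCPs over 4 globin rows, 33.6% over membrane and skeleton genes, 49.6% over transcription factor genes, 67.4% over heme and iron genes and 74.2% over erythropoietin signalling genes, Epor included, against 86.3% over all genes.

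Another course, described by a rule set after the values were seen, was a level of at least 25% in the limb at E11.5 and under 25% at E14.5. It held 12 of the 70 genes (17.1%), against 4.95% of all genes: Car1, Car2, Klf1, Gfi1b, Nfe2, Zfpm1, Bcl11a, Cd24a, Xk, Id1, Tfr2 and Steap3. Klf1, the erythroid regulator gene, read 4.83 FPKM in EMPs, 21.31 in liver MCPs, 8.27 in the limb at E11.5, 0.87 at E14.5, 0.50 in skin and 0.40 in the MAC library, and Gfi1b, a repressor gene of erythroid and megakaryocyte cells, 4.95, 18.72, 7.61, 0.92, 0 and 2.89. Nfe2 shared the limb decline (20.67, 9.17 and 0.56 FPKM in liver MCPs and the limb at E11.5 and E14.5) but was no lower in EMPs (23.92) or the MAC library (26.08). Of Gata1 and Tal1, which mast cells also use, Gata1 was kept and Tal1 was in neither class, with Gata1 at 14.90, 16.33 and 12.34 in liver MCPs and the limb at E11.5 and E14.5, and Tal1 at 20.17, 8.65 and 12.17. Lmo2, a partner of both, was lost, at 29.17, 2.53 and 0.12, as was Hemgn, at 4.6, 0.25 and 0.08. Myb, a progenitor regulator gene, read 118.41, 49.61 and 54.45. Among heme genes Cpox, which encodes an enzyme late in heme synthesis, was lost (23.17, 4.85 and 4.11), whereas Urod was kept at 28.53, 26.26 and 23.50. Tfrc, the transferrin receptor gene, read 35.86, 22.24 and 14.22, and Fth1, the ferritin heavy chain gene, 418.14, 385.14 and 375.26.

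**Figure D3:**
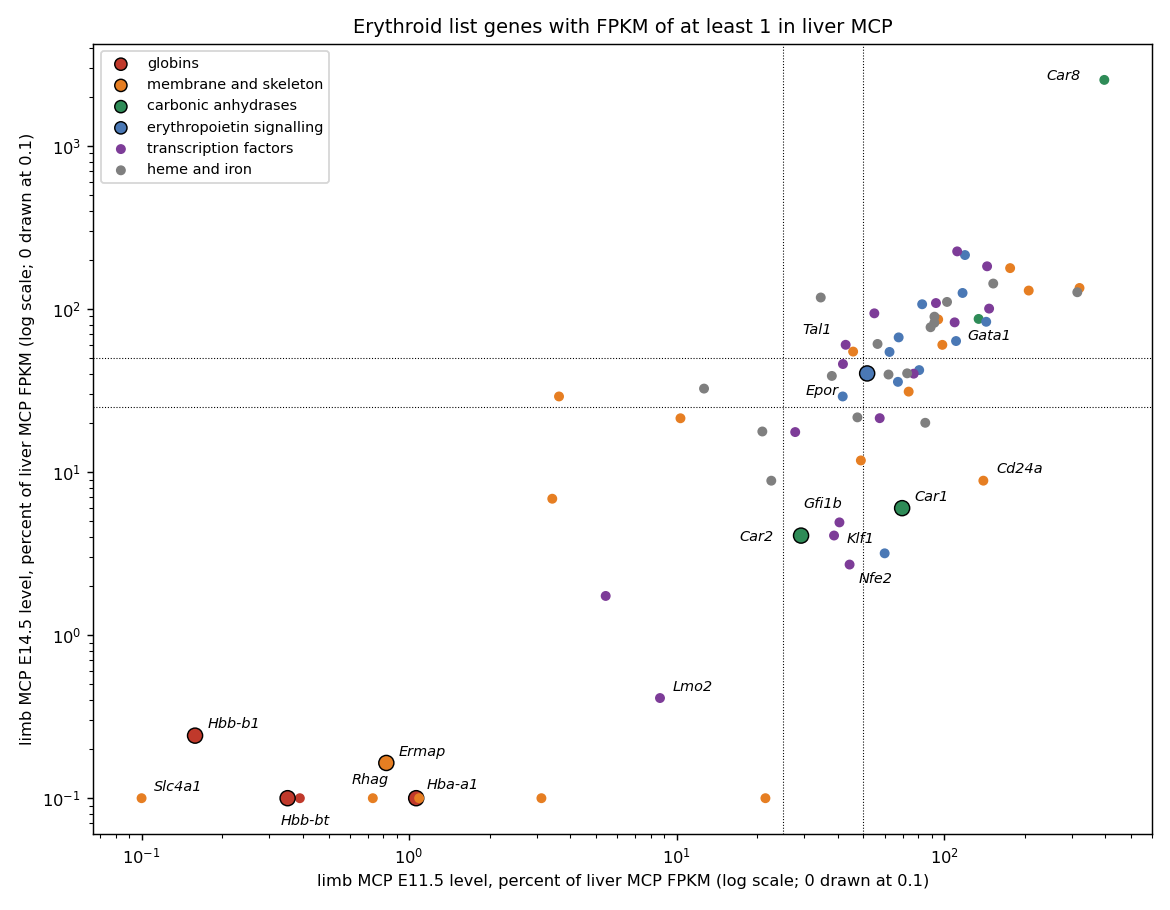
Level in E11.5 limb MCPs (horizontal axis) and in those of E14.5 (vertical axis), each as a percent of the liver MCP FPKM on log axes, for 70 erythroid list genes coloured by list, with the liver MCP library as 100% and values of 0 drawn at 0.1%. Large outlined points are members of the set, and dotted lines mark 25% and 50%. The globins and Ermap sit at the lower left, Car1 and Car2 with Klf1, Gfi1b and Nfe2 at the lower right (Car1 at 69.7% and 6.01%), and Epor near 51.6% and 40.3%.

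Genes nearest in profile were found by the mean absolute difference of log2(FPKM + 1) over the 6 libraries, each profile centred on its own mean, among 3804 genes reaching 10 FPKM somewhere. Car1 was nearest to Atp1b2, a sodium pump subunit gene (0.15, with a median of 1.77 over all these genes), which read 3.59, 38.63, 31.74, 2.26 and 0.30 FPKM from EMPs to skin and 0.24 in the MAC library, and then to Angpt1 (0.64) and Car2 (0.64). Car2 was nearest to Klf1 (0.26, median 1.34), Gfi1b (0.40) and Mfsd2b (0.42). Ermap was nearest to Prpf8 (0.42), whose limb values are listed at 0, and to Hbb-b2 (0.42) and Hbb-bt (0.42). Hbb-bt was nearest to Hbb-b2 (0.00), Prpf8 (0.24) and Ermap (0.42), Hba-a1 to Hbb-bt (0.57), Hbb-b2 (0.57) and Lmo2 (0.60), and Hbb-b1 to Ass1 (0.73), Hba-a1 (0.74) and Lmo2 (0.86). Epor, compared with 5821 genes because its own level is low, had Gtf2h2 (0.15, median 0.74) and Ptgr2 (0.16) among its 3 nearest genes. For Epor the distance to Gata1 was 0.50 and to Hbb-b1 2.39, with a median of 0.74 over the genes compared. For Ermap these distances were 1.46 and 1.24, both near its median of 1.41. Ermap was nearer to Klf1 (0.76) and Car2 (0.81) than to Hba-a1 (0.93) or Hbb-b1, but Hbb-bt was nearer still (0.42). In the E11.5 limb Klf1 and Car2 still read 8.27 and 9.60 FPKM, where Ermap read 0.20. None of the 7 had Kit, Cpa3, Ms4a2, the IgE receptor beta chain gene, or Gata2 among its nearest. The smallest such distance was 1.30, between Epor and Kit, but it was above the Epor median of 0.74. Only the distance between Car1 and Gata2 (1.45) was under its member's median (1.77). Yet from liver MCPs through the limb at E11.5 and E14.5 Gata2 rose (16.91, 66.23 and 141.93 FPKM) while Car1 fell. The skin value of Gata2 is a listed 0, which may be a failed estimate. The distance is not scaled for a gene's range. Distances of different members, or of a member to genes of unlike range such as Klf1 and Hbb-b1, are therefore not directly comparable.

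Markers of other cells differed among the libraries, some in step with these genes and others not. Of the 7 erythroid markers in the table, 3 are the globins of the set. The other 4 summed to 7.39 FPKM in EMPs, 30.06 in liver MCPs, 9.57 in the E11.5 limb, 2.13 in the E14.5 limb and 0.62 in skin, with 2.12 in the MAC library, and Klf1 made up 21.31 of the liver MCP sum and 8.27 of the E11.5 limb sum. Slc4a1 was at 0 in both limb libraries and in skin. Alas2, the erythroid gene that starts heme synthesis, did not follow the globins, at 0.90 to 1.26 in the 5 liver and limb libraries and 0.12 in skin. Megakaryocyte markers summed to 13.69 in liver MCPs and to at most 5.41 elsewhere, and hepatoblast markers to 3.09 and at most 0.97. The sum of the mast cell markers was also higher in liver MCPs than in EMPs, but higher again in the limb and skin. It was 128.55 in EMPs, 373.53 in liver MCPs, 782.57 in the E11.5 limb, 3526.40 in the E14.5 limb and 15231.50 in skin, with 65.92 in the MAC library. Cpa3 alone gave 1855.57 of the E14.5 limb sum and 13493.9 of the skin sum. Single markers did not all rise. From the E14.5 limb to skin, Kit went from 283.93 to 239.34 and Gata2 from 141.93 to a listed 0. Fcer1a read 1.55 in liver MCPs and 1.26 in the E11.5 limb, and Hdc 60.5 in EMPs and 63.7 in liver MCPs. Neutrophil markers summed to 928.15 in liver MCPs, against 9828.77 in EMPs, and to 447.15 in the E11.5 limb. The part of these cells in the results above was not tested.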

How the data were processed

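Bulk RNA-seq values of 6 libraries, 1 per group, were taken from a single table in FPKM that the authors deposited, for which the submitters' processing notes name RSEM, Bowtie2 and the build mm10 (GRCm38). Tool versions, annotation and fragment counts: not given in the sources used here. Total RNA came from sorted cells and was sequenced on Illumina HiSeq, per the labels' protocols. Of 17913 rows, 4 with a repeated symbol were dropped. Because FPKM spreads the reads of near-identical globin genes over several rows, single globin values are uncertain.

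Groups came from the labels. Differences are of log2(FPKM + 1), with the pseudocount stated, and fold values are ratios of FPKM without it. With 1 library a group no p-value was computed and no count model was fitted. Mapped fragments were estimated from 1409 genes with 1 transcript of 600 to 2500 bases, as the total that brought implied fragments closest to whole numbers (78.7% to 83.2% within 0.2, against 40% by chance), with lengths shortened by 50 bases. This was tested on simulated libraries. Poisson intervals at 95% used the longest coding transcript in GENCODE M21, and for Hbb-b1 the length of Hbb-bt (703 bases). The members and lists were chosen with earlier results of these data known. Named genes were the 7, the leading genes of 6 erythroid lists by level and by limb difference, the 3 nearest profiles of each, and the genes of each class where listed. Some genes that these rules name are not reported here. Software was python 3.11.15, pandas 2.3.3, scipy 1.17.1 and biopython 1.88. Alternatives were other pseudocounts, expression filters, fold rules and scalings.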

Additional observations from a re-analysis of the deposited data

How the results depend on the processing

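No paired analysis was possible because each group has 1 library. Of 192 member differences under the 5 pseudocount and scaling settings that can change them, 142 stayed within counting error and 50 moved further, 47 of them with the pseudocount. No called one changed sign, and 1 uncalled one did: Epor in skin against the E14.5 limb was −0.59 as deposited and 0.12 after median-of-ratios scaling. Members called, in the order liver MCPs against EMPs, liver MCPs against MAC, limb against liver MCPs and limb E14.5 against E11.5, were 5, 5, 4 and 1. At an FPKM of at least 30 they were 3, 3, 2 and 0, and with globins removed and the rest rescaled 3, 3, 1 and 1, where fewer members were tested. A pseudocount of 5 left 2 in liver MCPs against EMPs, without Hbb-bt, Ermap and Car2, and scaling to equal sums gave 6, with Hba-a1. Without the expression filter 1 was called in MAC against EMPs and 2 in limb E14.5 against E11.5. The 2-fold rule called 4 in MAC against EMPs, 2 in limb E14.5 against E11.5 and 3 in skin against limb. All genes called, in the order liver MCPs against EMPs, MAC against EMPs, liver MCPs against MAC, limb against liver, limb E14.5 against E11.5 and skin against limb, numbered 164, 97, 316, 101, 123 and 971. They numbered 65, 44, 149, 30, 65 and 412 with a pseudocount of 5, 294, 187, 564, 277, 299 and 1804 without the filter, 73, 50, 146, 33, 59 and 380 at an FPKM of 30, and 1964, 1433, 2679, 1959, 1709 and 5433 by the 2-fold rule. Skin against limb gave 607 after median-of-ratios scaling. With an FPKM of at least 5 required in liver MCPs, 9 erythroid genes were lost and 17 kept, against 16 and 27. Hbb-b1, Hbb-bt, Hba-a1 and Ermap were lost, and Car1 and Car2 lost after E11.5, under every alternative run for those classes, and Epor counted as kept only when kept meant at least 25%. Scaling to equal sums moved the lower share of calls to 51.1%, against 63.4%, in liver MCPs against EMPs, to 50% against 63.4% in limb against liver and to 75.7% against 95% in skin against limb. Median-of-ratios scaling gave 75% against 61.7% in liver MCPs against MAC, 46.2% in limb against liver and 57.5% in skin against limb. Relative to the median gene, differences as deposited are shifted by −0.18, −0.29, 0.15, −0.16, 0.10 and −1.42 log2 in the order above. The class of genes lost after E11.5, chosen after seeing the data, held 9 to 12 genes. No library could be left out, since each group has 1. Depth limits low values of the short globin transcripts, where 3 fragments give 0.365 to 0.525 FPKM.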
